A study of Rattus norvegicus with 6 samples.

Results

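Translation initiation and elongation factors were examined in cultured oligodendrocytes of SD rats and in the precursors from which they were grown. The members were all protein-coding entries of the deposited table whose symbol begins with Eif and a digit from 1 to 6, or with Eef and the digit 1 or 2. They were 64 genes of 37991 entries in all, of which 22640 were protein coding. Initiation factor symbols made up 54 of them and elongation factor symbols 10. The choice by symbol brings in the subunits of the factors and also their kinases, binding proteins and methyltransferases.

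Total RNA was sequenced from 3 libraries of differentiated cells and from 3 libraries of precursors, which the labels call the control condition, before differentiation. Both groups were grown in Raff medium, and the differentiated cells had in addition a change of growth factors. The replicates are numbered 1, 2 and 5 in both groups, and for replicates 1 and 2 the sample titles give day 3 for differentiated cells and day 0 for precursors. No mutation, transgene or added compound is named for either group, and the sources used here do not give the animals' age or sex. Whether the libraries came from separate cultures is not stated in the labels. The p-values therefore reflect the spread among these libraries alone, part of which may be technical.

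Translation begins when the small ribosomal subunit, held by eIF1, eIF1A, eIF3 and eIF5, receives the initiator tRNA from eIF2 and is brought to the capped end of an mRNA by eIF4E, eIF4G and eIF4A. The exchange factor eIF2B recharges eIF2 with GTP, and kinases that phosphorylate eIF2 block this step in the integrated stress response. Elongation then needs eEF1, which delivers aminoacyl-tRNAs, and eEF2, which moves the ribosome along. In humans, inherited defects of the eIF2B subunits cause vanishing white matter disease, a disorder in which oligodendrocytes and astrocytes are affected.

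Depth ran from 55522101 to 79898629 counts per library. CPM values are counts per unit of library total, with the totals scaled by TMM, the trimmed mean of log ratios. Before that scaling, 1 CPM stood for 55.5 reads in the smallest library. The replicate 1 libraries stood somewhat apart: log2 CPM correlated across genes at 0.972 to 0.984 between them and the other replicates of their group, and at 0.992 to 0.993 between replicates 2 and 5. The marker list of mature oligodendrocytes summed to 17410 to 20609 CPM in differentiated cells and to 1296 to 2068 CPM in precursors, and 6 of 6 of its genes were higher. Of 4 precursor markers 0 were called, at 797 to 1042 CPM in differentiated cells and 698 to 1293 CPM in precursors. Markers of dividing cells summed to 461 to 509 CPM in differentiated cells and to 802 to 941 CPM in precursors, with 5 of 5 lower. Astrocyte markers were present in both groups, at 6182 to 6607 CPM in differentiated cells and 3535 to 5068 CPM in precursors, with 2 of 5 tested higher. A library is RNA of a mixed culture, in which fewer cells of a type and less RNA per cell cannot be told apart.

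Transcripts of translation factors differed little between differentiated cells and precursors. Eif5a2, a paralog of the factor eIF5A that helps ribosomes past difficult stretches of peptide, was the only member called at an adjusted p under 0.05, with edgeR's quasi-likelihood test and Benjamini-Hochberg adjustment over all genes tested. That is 1 of the 63 members that passed the filter on low counts, or 1.59%, whereas 8.86% of the 17797 genes tested were called, 5.65% higher and 3.21% lower in differentiated cells. With an unadjusted p under 0.05 there were 8 members, and 4110 of all genes. No member was called lower by this test (0 genes), and DESeq2 called 3 members higher and 2 lower, beside 8.56% and 7.05% of all genes. The call of Eif5a2 was itself lost when any of the 6 libraries was left out.

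The sizes of the differences were small as well. The log2 fold change (differentiated over precursor) ran over the 63 members from -0.89 for Eef1a2 to 0.44 for Eif1, with a median of -0.06, beside a median of -0.04 over all genes. The members' quartiles lay at -0.20 and 0.09, and those of all genes at -0.37 and 0.27. Leaving the sign aside, the median size was 0.17 on the log2 scale for members and 0.32 for all genes, with a median standard error (SE) of 0.13 and 0.24. For 56 of the 63 members (88.9%) the 95% interval of the log2 fold change lay within -1 and 1, a 2-fold change either way, beside 52.0% of all genes. The other 7 were Eef1a2, Eif2ak2, Eif3m, Eif4e3, Eif1a, Eif4ebp2 and Eif4ebp3, whose levels were low or differed widely between replicates.

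**Figure D1:**
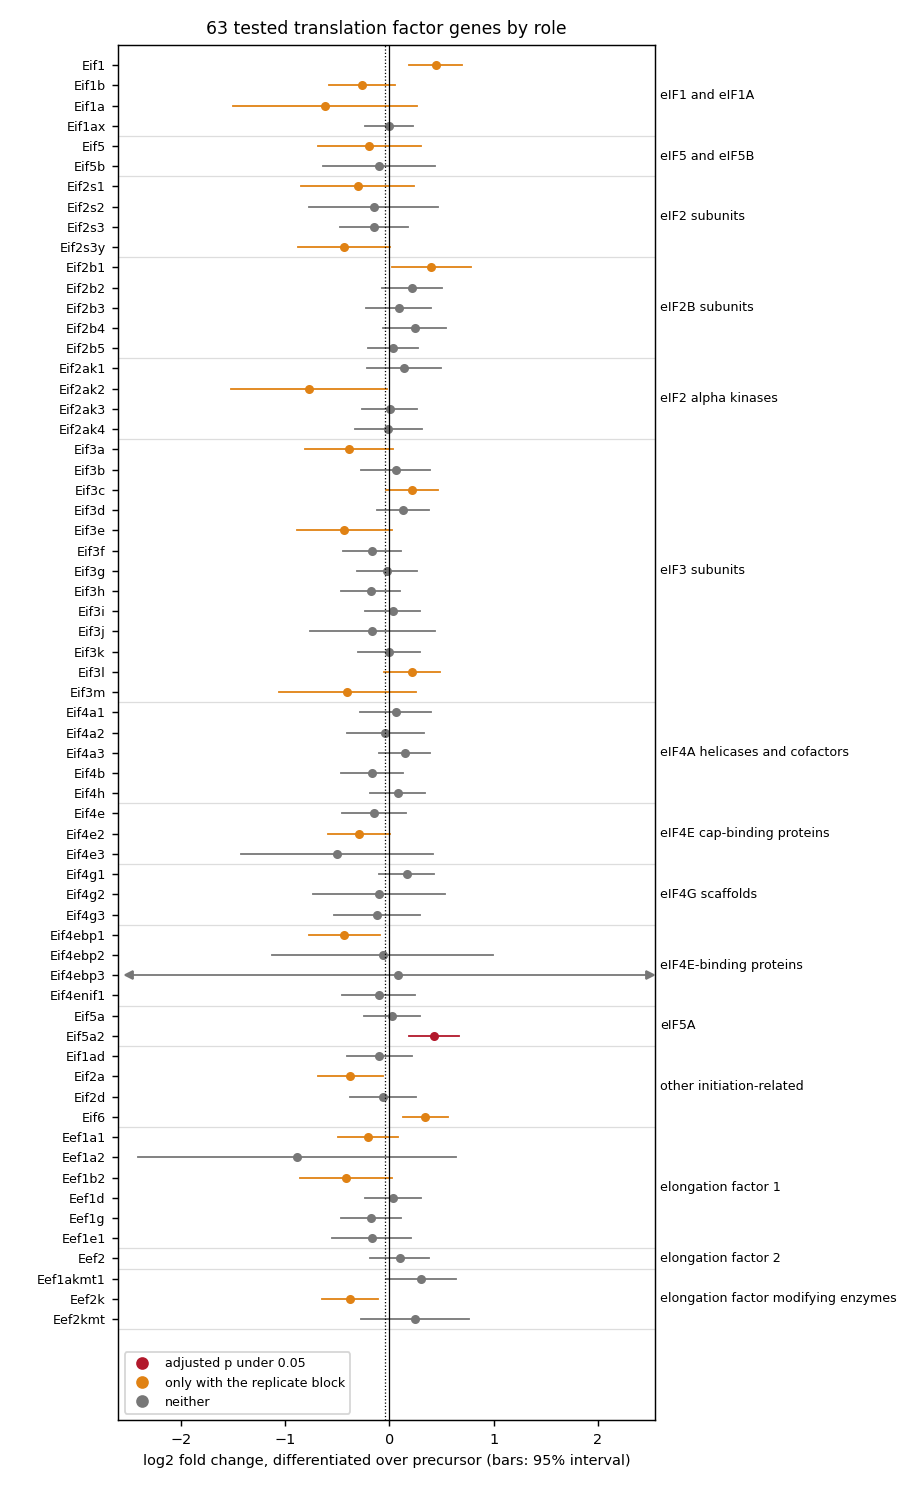
Log2 fold change (differentiated over precursor) of the 63 tested members, grouped by role, with bars for the 95% interval; the solid line is 0 the dotted line is the median of all genes, -0.04, and arrows mark an interval that runs past the axis. Eif5a2 alone has an adjusted p under 0.05 without the replicate block, and 20 further genes have one only with it.

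Deviations from the group mean correlated across genes between differentiated and precursor libraries of the same number, at 0.421, 0.197 and 0.272 for replicates 1, 2 and 5. Between replicates 2 and 5 the correlations were 0.0987 and 0.105, and between replicate 1 and the others -0.308 to -0.227. A second fit took the replicate number as a block. In that fit 6 members were called higher and 15 lower, 33.3% of the 63, and 30.6% of all genes were called, 14.9% higher and 15.7% lower. The 6 were Eif1, Eif2b1, Eif3c, Eif3l, Eif5a2 and Eif6. The 15 were Eif1a, Eif1b, Eif2a, Eif2ak2, Eif2s1, Eif2s3y, Eif3a, Eif3e, Eif3m, Eif4e2, Eif4ebp1, Eif5, Eef1a1, Eef1b2 and Eef2k. The share called in either direction was near that of all genes and says nothing particular about translation factors. By direction more members were lower than higher, while the 2 shares of all genes were close. Whether members lean to lower values more than other genes was not tested. Without both replicate 1 libraries, 2 members were called higher (Eif5a2 and Eif6) and 5 lower (Eif1a, Eif2ak2, Eif3e, Eif3m and Eef2k), where 17.0% of all genes were called, 8.69% higher and 8.29% lower. The labels do not state the pairing, and p-values of both fits are given below where they fall on different sides of the threshold.

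In CPM the 3 differentiated libraries lay above all 3 precursor libraries for 8 members and below them for 4. Among all genes the same held for 16.5% and 13.8%. Within each pair of libraries of the same number the differentiated library was higher for 14 members (22.2%) and lower for 24 (38.1%), beside 29.1% and 32.0% of all genes. Replicate 1 was the highest library of its group in both groups for 21 members (33.3%), as it was for 27.6% of all genes. Microglial markers summed to 489, 281 and 277 CPM in differentiated replicates 1, 2 and 5, and to 657, 273 and 281 CPM in precursor replicates 1, 2 and 5. Fibroblast and pericyte markers were likewise at 60.8 CPM in differentiated replicate 1 and 80.7 CPM in precursor replicate 1, against 20.4 to 32.9 CPM in the other libraries. The part of these cells in the members' values was not tested.

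**Figure D2:**
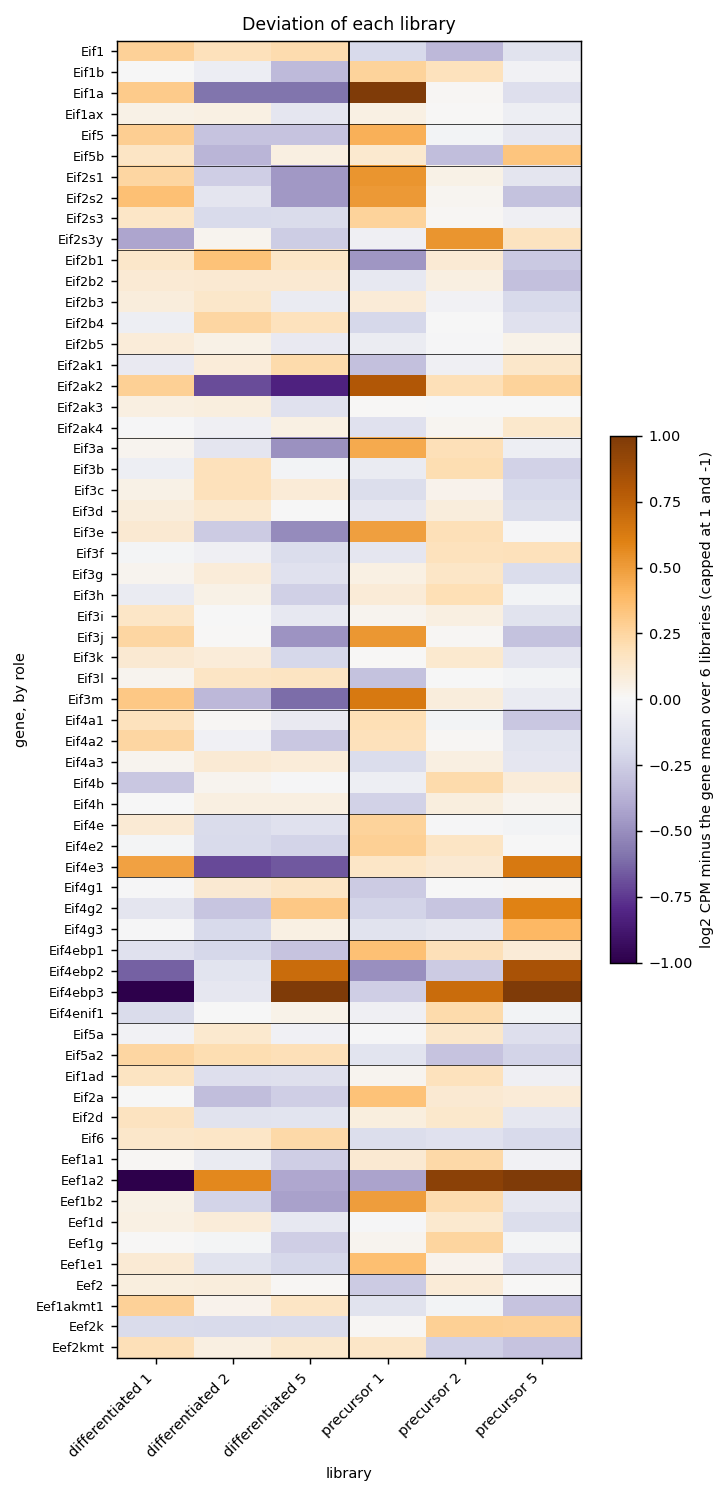
Log2 CPM of each tested member in each library minus the mean of that gene over all 6 libraries, in colour, with differentiated libraries left of the line and precursor libraries right of it. Eif1a, Eif2ak2, Eif3m and Eef1b2 are at their highest in replicate 1 of each group, and Eif4ebp2 in replicate 5 of each group.

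Together the 64 members took 2.03% to 2.13% of all counts in differentiated libraries and 2.26% to 2.58% in precursor libraries. On the TMM scale their sum was 23189, 22157 and 20492 CPM in differentiated replicates 1, 2 and 5, and 23021, 24547 and 21648 CPM in precursor replicates 1, 2 and 5. The means were 21946 ± 1361 CPM in differentiated cells and 23072 ± 1450 CPM in precursors (SD, n = 3 each; two-sided exact permutation p = 0.5, where 0.1 is the smallest p that 3 against 3 allows). On the TMM scale the groups overlapped, and the sum did not differ beyond the spread between replicates. As a share of all counts, every differentiated library lay below every precursor library. Elongation factors 1 and 2 made up 56.5% to 57.7% of the members' CPM in differentiated cells and 57.1% to 60.7% in precursors, most of it from a few abundant genes.

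Per length, Eef1a1, which carries aminoacyl-tRNA to the ribosome, was the most abundant member, with a mean of 4583 TPM (transcript abundance per length, scaled to a fixed total) over the 6 libraries. Eef2, the translocation factor, followed at 1334 TPM, Eef1g, a subunit of the eEF1 exchange complex, at 991 TPM, the RNA helicase Eif4a1 at 806 TPM and Eif5a at 463 TPM. The 13 tested eIF3 subunits ran from 21.3 TPM for Eif3j to 204 TPM for Eif3i. At the low end stood Eif5b, the GTPase that joins the large ribosomal subunit, at 2.71 TPM, and Eef1a2, the eEF1A form of neurons and muscle, at 0.694 TPM. Eif4e1b, a cap-binding protein known from oocytes, had 0 reads in all 6 libraries and was not tested. A count of 0 allows up to 3 reads, or 0.054 CPM before scaling in the smallest library, an interval that covers counting error only. TPM values are affected by the small noncoding RNA Rn7sl1, which took 34.2% to 38.8% of the TPM in differentiated libraries and 24.0% to 32.8% in precursor libraries.

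The choice of scale matters for the sign of small differences. With library size alone the median log2 fold change of all genes was -0.19 in place of -0.04, and on the log2(TPM + 1) scale it was -0.17. In place of a positive value, 14 members then had a negative one by library size, and 20 in TPM, and 0 changed from negative to positive. Relative to the median of all genes, 0 members changed side by library size and 11 in TPM. Eif5a2, Eif1, Eif6 and Eif2b1 kept a positive value under both.

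**Figure D3:**
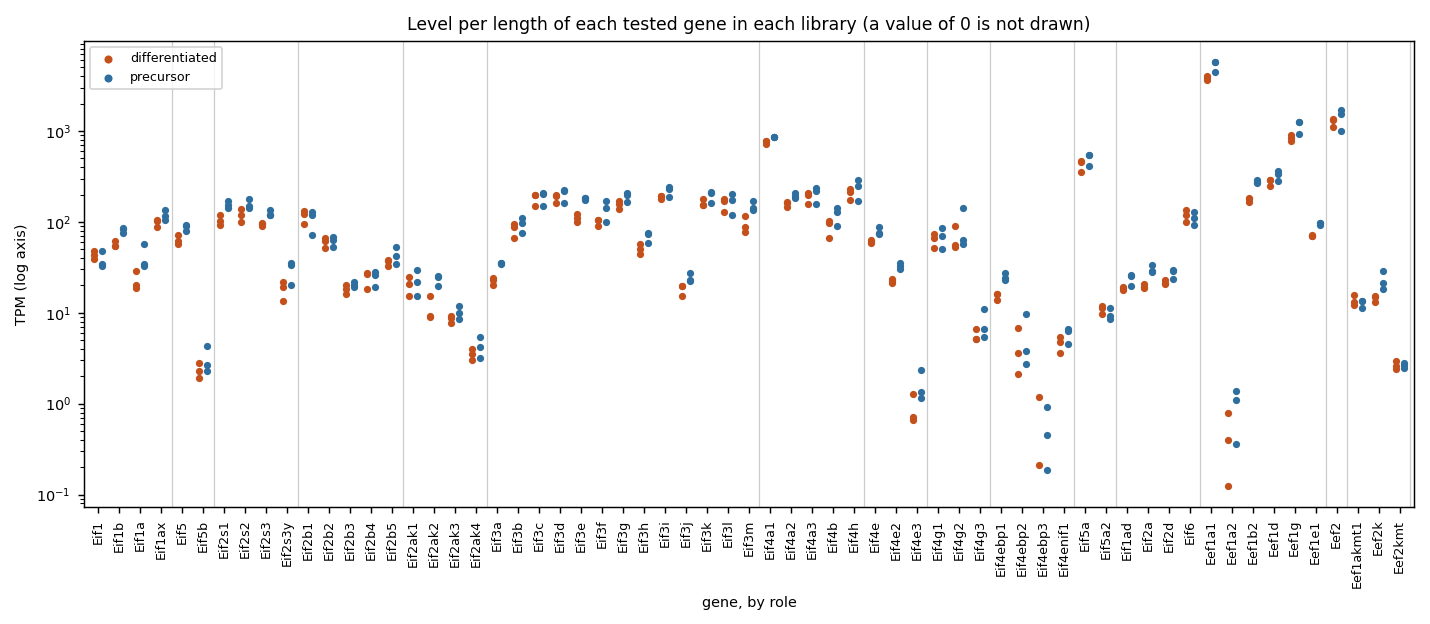
TPM of each tested member in each library, on a log axis, with differentiated libraries in orange left of precursor libraries in blue. Levels run from under 1 TPM for Eef1a2 and Eif4ebp3 to 3622 TPM and more for Eef1a1, and for most genes the points of both groups lie close together.

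Eif1, which guards the accuracy of start codon choice on the small subunit, was at 49.8, 46.8 and 47.9 CPM in differentiated replicates 1, 2 and 5, against 36.0, 32.7 and 37.6 CPM in precursors. Every differentiated library lay above every precursor library, and the log2 fold change was 0.44 (SE 0.11). The adjusted p was 0.0507 in edgeR's test and 0.0064 with the replicate block. By library size the log2 fold change was 0.29 and on log2(TPM + 1) 0.18. Its paralog Eif1b was at 45.5 to 57.0 CPM in differentiated cells and 55.8 to 68.4 CPM in precursors, with a log2 fold change of -0.26 and an adjusted p of 0.301, or 0.0249 with the block.

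Eif1a, a gene for eIF1A, which binds the same subunit beside eIF1, was at 78.2, 42.1 and 42.1 CPM in differentiated replicates 1, 2 and 5, against 129, 63.7 and 56.6 CPM in precursors. Replicate 1 was high in both groups, and the differentiated library was the lower of each pair, although the groups overlapped. Its log2 fold change was -0.62 (SE 0.37), with an adjusted p of 0.386 in edgeR's test and 0.00286 with the block, and 0.0254 without both replicate 1 libraries. The X-linked Eif1ax, which encodes a closely similar protein, had a mean of 109 TPM against 32.1 TPM for Eif1a. It was at 292 to 327 CPM in differentiated cells and 303 to 329 CPM in precursors (log2 fold change 0.00, SE 0.10). Eif1ad, an eIF1A-like protein, had a log2 fold change of -0.10.

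Eif5, the protein that makes eIF2 hydrolyse its GTP once the start codon is found, was at 329, 220 and 221 CPM in differentiated replicates 1, 2 and 5, against 363, 266 and 251 CPM in precursors. The differentiated library was lower in each pair, but the groups overlapped because replicate 1 was high in both. The log2 fold change of Eif5 was -0.19 (SE 0.21), with an adjusted p of 0.653, or 0.0389 with the block. Eif5b had a log2 fold change of -0.10 (SE 0.23).

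The 4 eIF2 subunit genes all had negative log2 fold changes, between -0.15 and -0.44, and 0 of them were called. Eif2s1 encodes the alpha subunit, which carries the phosphorylation site of the stress response. It was at 198, 141 and 122 CPM in differentiated replicates 1, 2 and 5, against 242, 173 and 154 CPM in precursors, with a log2 fold change of -0.30 (SE 0.23) and an adjusted p of 0.498, or 0.00848 with the block. Eif2s3y, the Y-linked gene of the gamma subunit, was at 28.0, 38.2 and 31.5 CPM in differentiated replicates 1, 2 and 5, against 36.1, 53.9 and 42.2 CPM in precursors. The log2 fold change of Eif2s3y was -0.44 (SE 0.19), with an adjusted p of 0.22, or 0.00725 with the block. The X-linked Eif2s3 was at 331 to 419 CPM in differentiated cells and 365 to 455 CPM in precursors, and it and the beta subunit gene Eif2s2 had a log2 fold change of -0.15 each.

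The eIF2B genes stood on the other side. All 5 had positive log2 fold changes on the TMM scale, from 0.04 for Eif2b5 to 0.40 for Eif2b1. On the scale of library size alone Eif2b3 and Eif2b5 turned negative, and in TPM all but Eif2b1 did. Eif2b1 encodes the alpha subunit, which takes part in sensing phosphorylated eIF2. It was at 168, 195 and 170 CPM in differentiated replicates 1, 2 and 5, against 111, 165 and 127 CPM in precursors. Every differentiated library lay above every precursor library, by a log2 fold change of 0.40 (SE 0.16), with an adjusted p of 0.193, or 0.011 with the block. Eif2b4, the delta subunit, was at 35.3 to 43.6 CPM in differentiated cells and 31.8 to 36.7 CPM in precursors (log2 fold change 0.24, SE 0.13), and Eif2b2, the beta subunit, had a log2 fold change of 0.22 (SE 0.12). The catalytic epsilon subunit Eif2b5 differed by 0.04 (SE 0.10), with a 95% interval well within a 2-fold change.

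Summed over its 5 subunits, eIF2B was at 450, 483 and 439 CPM in differentiated replicates 1, 2 and 5, against 363, 434 and 374 CPM in precursors. On this TMM scale the lowest differentiated sum was just above the highest precursor sum. As a share of all counts the groups overlapped, at 0.0404%, 0.0465% and 0.0435% in differentiated replicates 1, 2 and 5, against 0.0357%, 0.0456% and 0.0422% in precursors. The TPM of eIF2B subunits divided by that of eIF2 subunits was 0.585, 0.84 and 0.876 in differentiated replicates 1, 2 and 5, against 0.404, 0.638 and 0.609 in precursors. This ratio was chosen after its values were seen, and its groups overlapped (two-sided exact permutation p = 0.3, without regard to pairs), although the differentiated ratio was the higher in each of the 3 pairs.

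Among the kinases that phosphorylate eIF2, Eif2ak2, the kinase PKR that responds to double-stranded RNA, had the largest difference. It was at 72.7, 36.9 and 33.8 CPM in differentiated replicates 1, 2 and 5, against 104, 68.7 and 71.8 CPM in precursors. Replicate 1 was high in both groups, and each differentiated library was lower than the precursor library of its number, although the groups overlapped. Its log2 fold change was -0.77 (SE 0.32), with an adjusted p of 0.203 in edgeR's test. With the block the adjusted p was 0.00295, and without both replicate 1 libraries it was 0.00208. Microglial markers had the same pattern in replicate 1, and their part in the level of Eif2ak2 was not tested.

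The other 3 kinases did not pass either fit. Eif2ak3, the kinase PERK of the endoplasmic reticulum, was at 35.6 to 41.4 CPM in differentiated cells and 39.2 to 39.5 CPM in precursors (log2 fold change 0.00, SE 0.11). Eif2ak4, the kinase GCN2 that senses uncharged tRNA, was at 18.4 to 19.8 CPM in differentiated cells and 17.3 to 20.9 CPM in precursors. Eif2ak1, the haem-regulated kinase, was at 39.5, 44.7 and 49.1 CPM in differentiated replicates 1, 2 and 5, against 34.0, 40.5 and 46.2 CPM in precursors, with a log2 fold change of 0.14 (SE 0.15).

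Of the 13 subunits of eIF3, the scaffold of the small subunit complex, 5 had positive and 8 negative log2 fold changes, with 0 called. Their summed level was 2658, 2641 and 2367 CPM in differentiated replicates 1, 2 and 5, against 2626, 2730 and 2342 CPM in precursors, and the sums overlapped. With the block, 2 were higher and 3 lower. Eif3c was at 570, 625 and 589 CPM in differentiated replicates 1, 2 and 5, against 489, 563 and 480 CPM in precursors, with the groups apart. Its log2 fold change was 0.22 (SE 0.11), with an adjusted p of 0.272, or 0.025 with the block, and on the TPM scale the sign turned. Eif3l also lay apart, at 222 to 243 CPM in differentiated cells and 177 to 218 CPM in precursors, with a log2 fold change of 0.22 and an adjusted p of 0.317, or 0.0355 with the block, and its sign turned on the TPM scale as well.

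Eif3e was at 216, 166 and 140 CPM in differentiated replicates 1, 2 and 5, against 280, 228 and 198 CPM in precursors. Each differentiated library was lower than the precursor library of its number, while the groups overlapped. Its log2 fold change was -0.43 (SE 0.19), with an adjusted p of 0.237 in edgeR's test and 0.00236 with the block, and 0.0465 without both replicate 1 libraries. Eif3m, like Eif3e a subunit with a PCI domain, was at 175, 111 and 91.7 CPM in differentiated replicates 1, 2 and 5, against 219, 149 and 132 CPM in precursors. Its log2 fold change was -0.40 (SE 0.28), with an adjusted p of 0.453 in edgeR's test and 0.00469 with the block, and 0.0455 without both replicate 1 libraries.

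Eif3a, the largest subunit, was at 140, 126 and 98.0 CPM in differentiated replicates 1, 2 and 5, against 188, 157 and 132 CPM in precursors, with a log2 fold change of -0.39 (SE 0.18) and an adjusted p of 0.25, or 0.00454 with the block. The differentiated library of each pair was the lower of the 2, and the groups overlapped. The remaining 8 subunits (Eif3b, Eif3d, Eif3f, Eif3g, Eif3h, Eif3i, Eif3j and Eif3k) had log2 fold changes from -0.18 to 0.13 and were not called in either fit.

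Reads of some members can be shared with near copies, which bears on these values. A second entry for subunit H of eIF3 took 49.8% to 52.1% of the summed counts of both, so the level of Eif3h alone may understate it. The sum of both had a log2 difference of -0.19. For Eif3e, 2 pseudogenes took 12.9% to 14.9%, for Eif4g1 2 similar entries took 13.4% to 14.9%, and for Eif4g2 a pseudogene took 4.79% to 6.53% of the combined reads. For Eef1a1, 4 pseudogene entries took 25.1% to 33.1% of the combined counts. Of these, 2 had nearly equal counts in every library, such as 62958 and 62689 in differentiated replicate 1 and 108474 and 108085 in precursor replicate 2. Whether the same reads were counted under both was not tested, so this share may be too high. The log2 difference was -0.21 for Eef1a1 itself and -0.21 for the sum with these entries. The sources used here do not say how the counting divided such reads.

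The cap-binding complex differed little. The helicase Eif4a1 was at 1280 to 1538 CPM in differentiated cells and 1123 to 1559 CPM in precursors, and the other helicase genes and cofactors (Eif4a2, Eif4a3, Eif4b and Eif4h) had log2 fold changes from -0.17 to 0.15. The scaffold Eif4g1 was at 337 to 376 CPM in differentiated cells and 283 to 343 CPM in precursors, with a log2 fold change of 0.16 (SE 0.11). Eif4g2, a scaffold that does not bind eIF4E, followed the replicate number, at 313, 280 and 424 CPM in differentiated replicates 1, 2 and 5, against 292, 280 and 517 CPM in precursors. Eif4g3 had a log2 fold change of -0.12 (SE 0.18).

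Eif4e, which binds the cap, was at 188, 153 and 157 CPM in differentiated replicates 1, 2 and 5, against 209, 173 and 170 CPM in precursors, with a log2 fold change of -0.15 (SE 0.13). Eif4e2, a cap-binding protein that works as a repressor, was at 37.0, 32.8 and 32.1 CPM in differentiated replicates 1, 2 and 5, against 45.5, 41.7 and 37.4 CPM in precursors. The groups were apart, with a log2 fold change of -0.29 (SE 0.13) and an adjusted p of 0.227, or 0.0292 with the block. Eif4e3 was scarce, at 1.70 to 3.90 CPM in differentiated cells and 3.02 to 4.33 CPM in precursors (log2 fold change -0.50, SE 0.39).

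Eif4ebp1 encodes the inhibitor that holds eIF4E away from eIF4G until the kinase mTOR phosphorylates it. It was at 14.2, 13.6 and 12.8 CPM in differentiated replicates 1, 2 and 5, against 20.0, 17.9 and 16.8 CPM in precursors. Every differentiated library lay below every precursor library, with a log2 fold change of -0.43 (SE 0.14) and an adjusted p of 0.124, or 0.0189 with the block. With library size alone, with limma on log2(TPM + 1) and with DESeq2 the adjusted p was 0.0421, 0.0443 and 0.0287. With upper quartile scaling, with no filter and with both replicate 1 libraries left out it was 0.0931, 0.194 and 0.117. Eif4ebp2 followed the replicate number, at 5.57, 7.97 and 14.1 CPM in differentiated replicates 1, 2 and 5, against 6.17, 7.27 and 15.5 CPM in precursors, and Eif4ebp3 was under 1 CPM in all 6 libraries. Eif4enif1, which carries eIF4E into the nucleus, had a log2 fold change of -0.10.

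The TPM of Eif4e was 4.33, 3.69 and 3.94 times that of Eif4ebp1 in differentiated replicates 1, 2 and 5, against 3.32, 3.08 and 3.21 times in precursors. Every differentiated value was above every precursor value, at means of 3.98 ± 0.32 in differentiated cells and 3.20 ± 0.12 in precursors (SD, n = 3 each; two-sided exact permutation p = 0.1, the smallest possible, and 0.133 adjusted over the 4 ratios chosen after the values were seen). The mRNA ratio says nothing of the proteins or of their phosphorylation.

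Both eIF5A genes carry a lysine that is changed to hypusine in the protein. Eif5a2 was at 57.4, 55.7 and 55.3 CPM in differentiated replicates 1, 2 and 5, against 44.1, 39.4 and 41.5 CPM in precursors. The groups were apart, the mean being 56.1 ± 1.1 CPM in differentiated cells and 41.7 ± 2.4 CPM in precursors (SD, n = 3 each), and the log2 fold change was 0.43 (SE 0.10), a 1.35-fold higher level. Its adjusted p was 0.0457 in edgeR's test and 0.00553 with the block, and 0.0304 without both replicate 1 libraries. It ran from 0.0603 to 0.188 when a single library was left out, and it was 0.0559 with upper quartile scaling and 0.0678 with no filter. With library size alone the log2 fold change was 0.28 (adjusted p 0.166), and with limma on log2(TPM + 1) it was 0.18 (adjusted p 0.593). Its paralog Eif5a was at 524 to 588 CPM in differentiated cells and 483 to 594 CPM in precursors, with a log2 fold change of 0.02 (SE 0.11).

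Eif6 keeps large ribosomal subunits from joining small ones too early and takes part in making them. It was at 145, 146 and 155 CPM in differentiated replicates 1, 2 and 5, against 117, 119 and 114 CPM in precursors. Every differentiated library was above every precursor library, with a log2 fold change of 0.34 (SE 0.09). The adjusted p was 0.0651 in edgeR's test and 0.00843 with the block, and 0.0382 without both replicate 1 libraries. By library size the log2 fold change was 0.20 and on log2(TPM + 1) 0.08. Its TPM divided by the summed TPM of the eIF3 subunits was 0.0709, 0.0739 and 0.0883 in differentiated replicates 1, 2 and 5, against 0.0582, 0.0574 and 0.0639 in precursors. This ratio was chosen after its values were seen (two-sided exact permutation p = 0.1, the smallest possible, and 0.133 adjusted over the 4 ratios).

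Eif2a, a separate protein that can bring initiator tRNA without eIF2, was at 54.2, 43.5 and 45.8 CPM in differentiated replicates 1, 2 and 5, against 69.2, 58.7 and 58.1 CPM in precursors. Every differentiated library was below every precursor library, with a log2 fold change of -0.37 (SE 0.13) and an adjusted p of 0.147, or 0.00805 with the block. Eif2d, which acts in ribosome recycling, had a log2 fold change of -0.06 (SE 0.13).

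**Figure D4:**
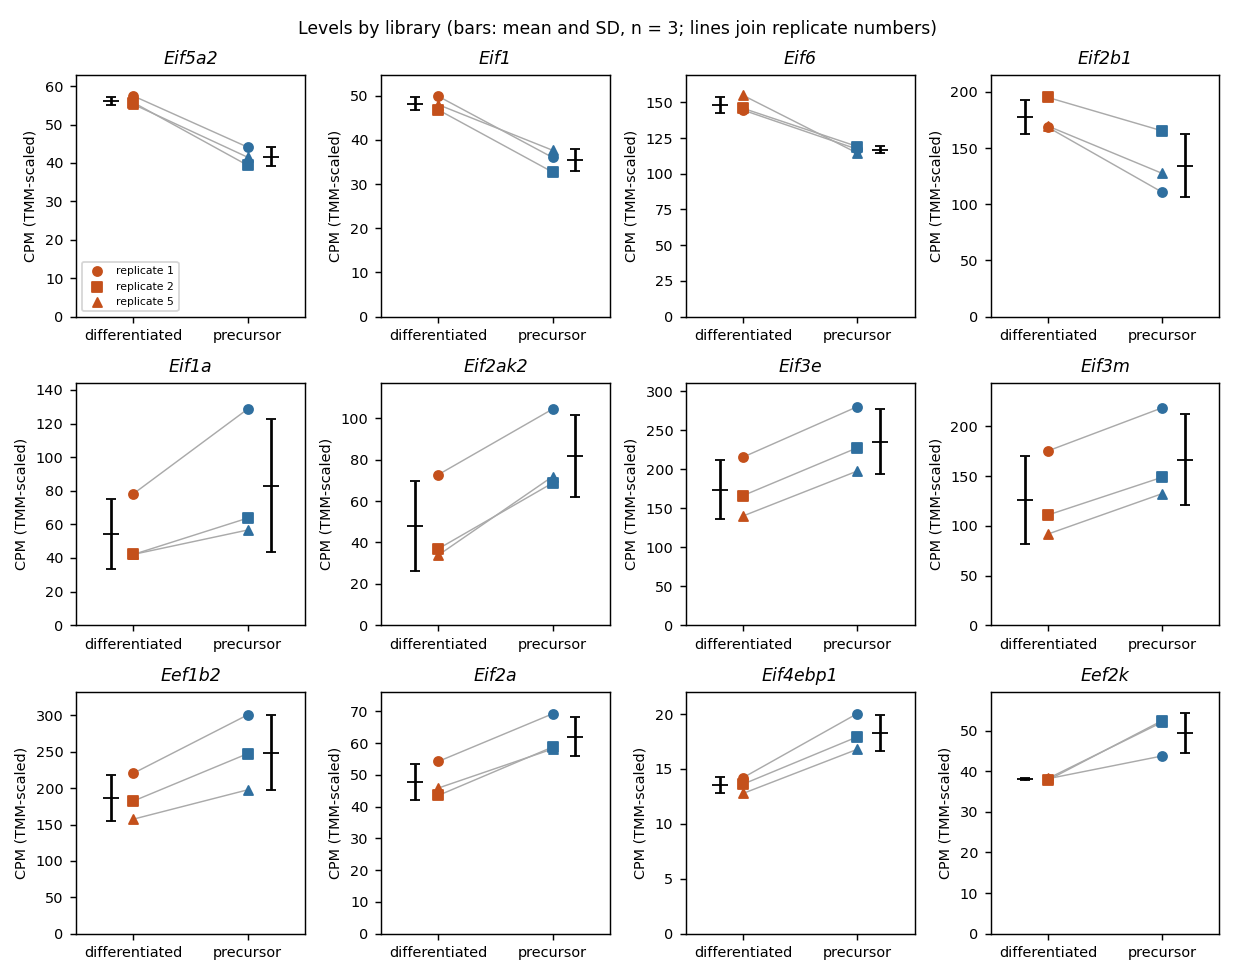
CPM in each library for 12 members, differentiated left of precursor in each panel, with grey lines that join libraries of the same number and bars for the mean and SD (n = 3). In the top row each differentiated library lies above all precursor libraries, while for Eif1a, Eif2ak2, Eif3e, Eif3m and Eef1b2 each line slopes the same way although the groups overlap.

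Of the elongation factors 0 were called. Eef1a1 was at 7523, 7044 and 6277 CPM in differentiated replicates 1, 2 and 5, against 8060, 8758 and 7268 CPM in precursors. The differentiated library was lower in each pair and the groups overlapped, with a log2 fold change of -0.21 (SE 0.12) and an adjusted p of 0.369, or 0.039 with the block. Eef1b2, a nucleotide exchange subunit of eEF1, was at 220, 182 and 157 CPM in differentiated replicates 1, 2 and 5, against 301, 247 and 198 CPM in precursors. Again each pair had the lower value in differentiated cells, with a log2 fold change of -0.41 (SE 0.19) and an adjusted p of 0.244, or 0.00337 with the block.

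The other eEF1 genes passed neither fit. Eef1g, the scaffold subunit, was at 1093 to 1303 CPM in differentiated cells and 1278 to 1553 CPM in precursors (log2 fold change -0.18, SE 0.12). Eef1d, the second exchange subunit, had a log2 fold change of 0.03, and Eef1e1, a small protein of the tRNA synthetase complex, one of -0.17. Eef1a2 was at 0.31 to 1.52 CPM in differentiated cells and 0.75 to 2.06 CPM in precursors, so that its log2 fold change of -0.89 had an SE of 0.65.

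Eef2 was at 3842, 3866 and 3683 CPM in differentiated replicates 1, 2 and 5, against 3049, 3915 and 3667 CPM in precursors. Precursor replicate 1 was low, the groups overlapped, and the log2 fold change was 0.10 (SE 0.12, adjusted p 0.692 in edgeR's test). Eef2k, the kinase that phosphorylates eEF2 and slows elongation, was at 38.2, 37.8 and 38.2 CPM in differentiated replicates 1, 2 and 5, against 43.8, 52.5 and 52.1 CPM in precursors. Every differentiated library was below every precursor library, with a log2 fold change of -0.38 (SE 0.12). The adjusted p was 0.0994 in edgeR's test, 0.0329 in DESeq2 and 0.0188 with the block. It was 0.0314 when both replicate 1 libraries were left out. With library size alone, upper quartile scaling, no filter and limma on log2(TPM + 1) it was 0.0664, 0.0896, 0.148 and 0.107.

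The TPM of Eef2 was 83.4, 86.8 and 88.8 times that of its kinase in differentiated replicates 1, 2 and 5, against 55.9, 71.8 and 60.2 times in precursors. All 3 differentiated ratios were above the highest precursor ratio (two-sided exact permutation p = 0.1, the smallest possible, and 0.133 adjusted over the 4 ratios). This ratio too was chosen after its values were seen, which the adjustment does not cover. Eef1akmt1 and Eef2kmt, methyltransferases for eEF1A and eEF2, had log2 fold changes of 0.30 (SE 0.14) and 0.25 (SE 0.22), and were called in neither fit.

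Paralogs of a factor can replace each other, so the share of each in the TPM of its set was compared, 16 shares in 7 sets. With 3 libraries against 3 the smallest two-sided exact permutation p is 0.1, and adjusted over the 16 shares all were at least 0.4. The groups were apart for 4 shares. Eif5a2 held 2.65%, 2.35% and 2.59% of both eIF5A genes in differentiated replicates 1, 2 and 5, against 2.00%, 1.65% and 2.05% in precursors. Eif4e held 72.7%, 71.6% and 72.1% of the 3 cap-binding genes in differentiated replicates 1, 2 and 5, against 70.5%, 68.4% and 69.7% in precursors. The share of Eif4e2 was accordingly lower, at 25.8% to 27.6% in differentiated cells and 28.4% to 30.4% in precursors. Eif2ak3 held 18.6% to 21.6% of the 4 eIF2 kinases in differentiated cells and 16.3% to 18.0% in precursors.

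Among the kinases, Eif2ak2 held 36.6%, 21.4% and 19.4% in differentiated replicates 1, 2 and 5, against 48.1%, 35.3% and 34.2% in precursors. Eif2ak1 held 37.5%, 48.8% and 53.0% in differentiated replicates 1, 2 and 5, against 29.5%, 39.1% and 41.4% in precursors. In both cases the pairs all moved one way while the groups overlapped (exact permutation p = 0.3). Eif4ebp2 held 13.2%, 18.3% and 28.6% of the 3 eIF4E-binding protein genes in differentiated replicates 1, 2 and 5, against 10.6%, 13.4% and 25.7% in precursors, which went with the replicate number more than with the group. Eif4a2 held 16.1% to 18.7% of both eIF4A genes in differentiated cells and 17.8% to 19.5% in precursors, and Eef1a2 at most 0.024% of the eEF1A genes in any library.

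**Figure D5:**
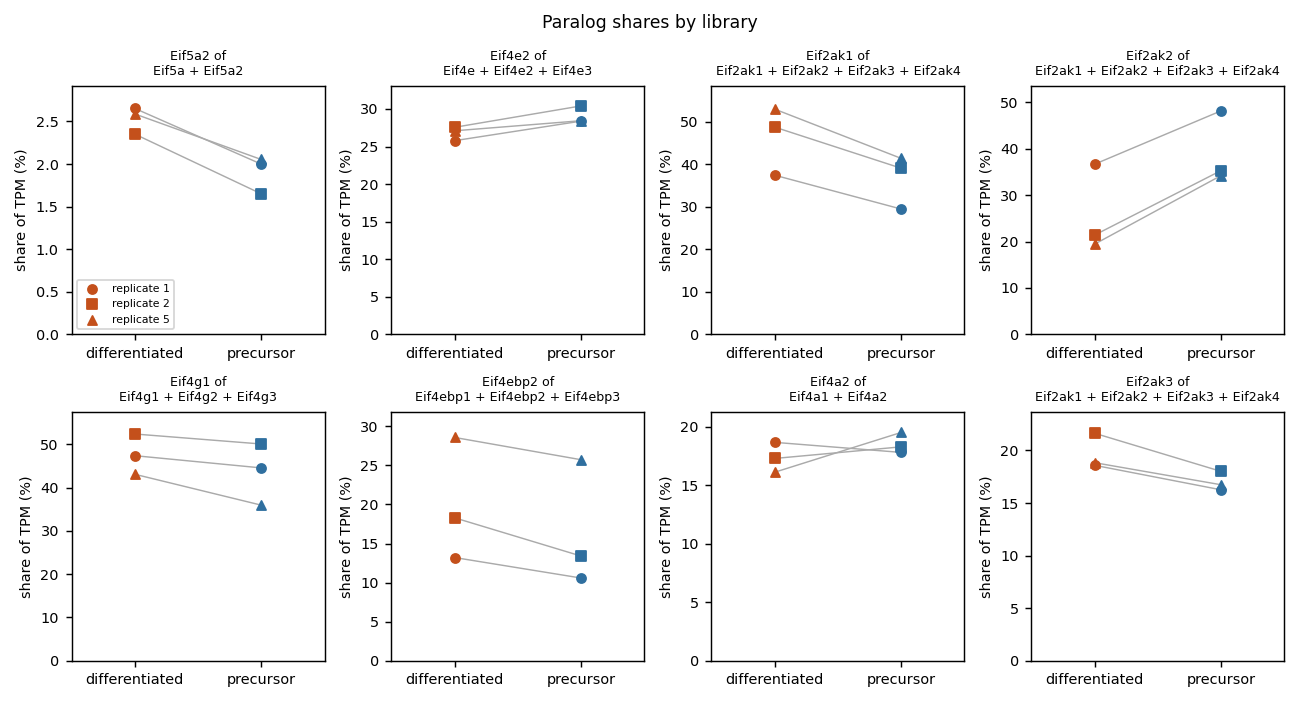
Share of TPM that a gene holds within its paralog set, in percent, for 8 of the 16 shares, with differentiated left of precursor and grey lines joining libraries of the same number. The shares of Eif5a2, Eif4e2 and Eif2ak3 do not overlap between the groups, and those of Eif2ak1 and Eif2ak2 do.

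Many mRNAs of the translation machinery begin with a C and a run of pyrimidines, the terminal oligopyrimidine (TOP) motif, through which mTOR governs their translation. Windows of 30 bases around the start of transcription, 15 before and 15 from the start, were read from the RefSeq promoter table of the assembly GRCr8. A run was a C followed by at least 4 bases that are each C or T, on the strand of the gene, beginning within 5 bases of the start. The table held a window for 58 of the 64 members, and 16 of them (27.6%) had a run, beside 4641 of 27457 genes (16.9%). The median log2 fold change was -0.01 over the 15 tested members with a run and -0.05 over the 42 without. The sequences below show the run in capitals for the 7 members with a run that were called with the block. The 4 that were lower come first and then the 3 that were higher. The run of Eef1b2 is 15 bases long, and its end lies past the window.
Eef1b2, chr9:72074076-72074105, plus strand: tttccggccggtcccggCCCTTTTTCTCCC
Eif3m, chr3:111897179-111897208, minus strand: cgtaacaccgtgtggtaccgCTCCTTTTCC
Eif2a, chr2:144911345-144911374, plus strand: ccagcgcatgggtttCTCTTTCCgggacaa
Eef1a1, chr8:88225055-88225084, minus strand: tcgccttggacgttCTTTTTCgcaacgggt
Eif5a2, chr2:113657819-113657848, plus strand: ggccccgccccgtCTCCTggaccagccgcg
Eif1, chr10:85747122-85747151, plus strand: tacaggcgccgCCCCTCCgccccagtcact
Eif3c, chr1:190583053-190583082, minus strand: tgctttcgggcggatctcggCTTTCggggg
These windows lie at the start sites that the RefSeq table uses. With the block, 4 of the 15 members with a run were lower and 3 higher, and of the 42 without a run 9 were lower and 3 higher, beside 15.7% and 14.9% of all genes. Long runs also occur in members that were not called, such as Eif3f, Eif2s3 and Eef1akmt1. Of 9 members known as TOP mRNAs, named after the values were seen (Eef1a1, Eef1b2, Eef1d, Eef1g, Eef2, Eif3e, Eif3f, Eif3h and Eif4b), 0 were called and 3 were lower with the block, where 15.7% of all genes were lower. Their median log2 fold change was -0.18, beside -0.04 for all genes. By the rule above, Eef2 and Eef1g have no run, and Eef1d, Eif3e, Eif3h and Eif4b have no window in the table, so the split by run does not place all known TOP mRNAs. A match to these letters is a description and not a regulated site.

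The genes around translation factors were counted from 6 lists. Among 25 genes of mTOR signalling and eIF4E control, 3 were higher and 0 lower in edgeR's test, beside 5.65% higher and 3.21% lower of all genes, and 6 higher and 4 lower with the block, beside 14.9% and 15.7% of all genes. Deptor, an inhibitor bound to mTOR, was at 20.9, 17.3 and 16.5 CPM in differentiated replicates 1, 2 and 5, against 9.15, 7.35 and 10.5 CPM in precursors (log2 fold change 1.02, SE 0.19, adjusted p 0.0194). Pdcd4, which blocks the helicase eIF4A, was at 107, 93.3 and 85.0 CPM in differentiated replicates 1, 2 and 5, against 64.5, 52.9 and 47.1 CPM in precursors (log2 fold change 0.79, SE 0.15, adjusted p 0.0213). Ddit4, which restrains mTOR under stress, was at 7.20, 12.1 and 17.3 CPM in differentiated replicates 1, 2 and 5, against 3.42, 3.54 and 5.78 CPM in precursors (log2 fold change 1.52, SE 0.37, adjusted p 0.0469). The groups were apart in each of the 3, and the median of the list was -0.05. Each of the 3 calls was lost when a library was left out, with adjusted p up to 0.0794, 0.0931 and 0.165 for Deptor, Pdcd4 and Ddit4.

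Among 17 targets of the integrated stress response, 2 rose and 0 fell, beside 5.65% and 3.21% of all genes, with a median log2 fold change of 0.13. With the block 6 were higher and 4 lower, beside 14.9% and 15.7% of all genes. Psat1, an enzyme of serine synthesis, was at 328, 371 and 340 CPM in differentiated replicates 1, 2 and 5, against 142, 168 and 166 CPM in precursors (log2 fold change 1.13, SE 0.11, adjusted p 0.00155). Vldlr, a lipoprotein receptor, was at 143, 108 and 115 CPM in differentiated replicates 1, 2 and 5, against 50.8, 48.2 and 47.7 CPM in precursors (log2 fold change 1.32, SE 0.13, adjusted p 0.00169). Both groups of libraries were apart for each gene. Atf4 and Slc7a11 are added after their values were seen. Atf4, the transcription factor at the centre of the response, had a log2 fold change of 0.31 (SE 0.19) and an adjusted p of 0.384, or 0.00972 with the block. The amino acid transporter gene Slc7a11 had one of -1.11 (SE 0.36) and an adjusted p of 0.117, or 0.000233 with the block.

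Among 22 cytosolic aminoacyl-tRNA synthetases, which charge the tRNAs that eEF1A delivers, 2 rose and 0 fell, beside 5.65% and 3.21% of all genes, with a median log2 fold change of 0.20 and 17 positive values. With the block 10 were higher and 0 lower, beside 14.9% and 15.7% of all genes. The counts depended on the scale. The block with library size alone gave 5 higher and 4 lower, beside 9.52% and 24.0% of all genes. By library size without the block and on log2(TPM + 1) 0 were called higher, beside 3.81% and 2.74% of all genes. The median of the list by library size was 0.05, beside -0.19 for all genes. Iars was at 113, 132 and 138 CPM in differentiated replicates 1, 2 and 5, against 74.7, 73.3 and 82.7 CPM in precursors (log2 fold change 0.73, SE 0.12, adjusted p 0.0102). Aars was at 400, 445 and 453 CPM in differentiated replicates 1, 2 and 5, against 283, 327 and 283 CPM in precursors (log2 fold change 0.54, SE 0.11, adjusted p 0.0256). In each the lowest differentiated library was above the highest precursor library. On the TPM scale the median of the list was -0.05, beside -0.17 for all genes. Each call was lost when a library was left out, with adjusted p up to 0.0803 for Iars and 0.141 for Aars.

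No gene of the other 3 lists was called by edgeR without the block. With the block, 30.6% of all genes were called. Of 18 further cytosolic translation factors, with release and recycling factors among them, the median log2 fold change was 0.04, and 4 were higher and 3 lower with the block. Of 10 mitochondrial translation factors the median was 0.02, with 0 higher and 2 lower with the block. Of 17 enzymes that modify eIF2, eIF5A or eEF2 it was 0.04, with 2 higher and 1 lower with the block. At an unadjusted p under 0.05 these lists held 1, 1 and 0 genes.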

How the data were processed

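Read counts, FPKM and TPM for 37991 genes in 6 libraries were deposited by the authors in 1 table. The deposited read counts are whole numbers and not normalized, the deposited TPM values were used for levels per length, and the deposited FPKM values were not used. Per the labels' protocols, ISOGEN was used for the RNA and a stranded kit for total RNA for the libraries. Per the submitters' processing notes, the reads went through StringTie 2.1.3b, HISAT2 2.1.0, Trimmomatic 0.38 and bcl2fastq 2.20.0 (in no stated order), and the build named is the human GRCh38, whereas the gene identifiers are those of rat. The sources used here do not give the rat build, the annotation or whether counting used strand, and reads of overlapping and antisense genes cannot be told apart with certainty.

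The comparison used edgeR 4.0.16 in R 4.3.3 (quasi-likelihood test, TMM scaling, the package's low-count filter, robust estimation) on all 17797 genes that passed, with Benjamini-Hochberg adjustment over all of them and a threshold of 0.05. DESeq2 1.42.0 and limma 3.58.1 on log2(TPM + 1) and log2(TPM + 0.1), other scalings, no filter and leaving out each library were the alternatives. The fit was tested on simulated counts of this design. Total counts were 55522101 to 79898629 per library. The interval given for a gene without reads covers counting error only. The intervals of the log2 fold changes come from the main fit and include the spread between libraries. Both groups have replicates 1, 2 and 5. Same-numbered libraries deviated from their group's mean log2 CPM together, with correlations across genes of 0.421, 0.197 and 0.272. They were treated as pairs in the fits with the replicate block and in counts by pair, though no label states a pairing. The main fit and the permutation tests did not use the pairs. Promoter windows came from RefSeq (GRCr8).

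The members and lists were chosen with earlier results of these data known. Genes were named with values where they were called, where they were called only with the replicate block at a log2 fold change of at least 0.3 in size, where they had the highest mean TPM of their role group, where they belong to 1 of 7 paralog sets, where they had 1 of the 5 largest differences, or where they did not pass the filter. Of the lists, called genes were named, and other genes in the text were added after their values were seen.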

Additional observations from a re-analysis of the deposited data

How the results depend on the processing

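The fit with the replicate block, which rests on a pairing inferred from the data, moved the counts of members called higher and lower to 6 and 15. Of all genes 14.9% and 15.7% were called higher and lower in that fit. Higher and lower counts with the block were 6 and 4 for mTOR and eIF4E control, 6 and 4 for stress response targets, 4 and 3 for other cytosolic factors, 2 lower for mitochondrial factors, 10 higher for aminoacyl-tRNA synthetases, and 2 and 1 for modifying enzymes. The block with library size alone was added after seeing the data. It gave 3 and 23 members at a median log2 fold change of -0.21, beside 9.52% and 24.0% of all genes called. For the lists in the same order it gave 5 and 9, 4 and 5, 1 and 5, 2 lower, 5 and 4, and 5 lower. Only Eif2ak3 and Eif4ebp3 changed sign with the block, and neither was called in either fit.

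Without the block, members called higher and lower were 0 and 2 with library size alone (median -0.23) and 3 and 2 with DESeq2. They were 0 and 5 with limma on log2(TPM + 1) (median -0.29), and 0 and 6 with log2(TPM + 0.1) (median -0.34). Of all genes 3.81% were called higher and 5.65% lower with library size alone, and 8.56% and 7.05% with DESeq2. The shares were 2.74% and 5.62% on log2(TPM + 1), and 2.86% and 6.12% on log2(TPM + 0.1). No member was called higher (0 genes) with upper quartile scaling or with no filter, where 8.6% and 5.93% of all genes were called. Library size alone left 2 genes of mTOR and eIF4E control higher and 1 lower, and 0 synthetases higher. On the TPM scale with a pseudocount of 1, mTOR and eIF4E control had 1 higher and 1 lower. Stress response targets then had 2 higher and 2 lower, and synthetases 0 higher. With a pseudocount of 0.1, mTOR and eIF4E control had 1 higher and 1 lower, and stress response targets 2 higher and 3 lower. Synthetases had 0 higher with that pseudocount, and other cytosolic factors 1 lower. DESeq2 called 5 stress response targets higher and 1 lower, and 1 other cytosolic factor higher.

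With a single library left out, members called higher were 0 in each case, and members called lower were 0 to 1, the 1 without differentiated replicate 1. Of all genes 2.56% to 5.12% were called higher and 0.91% to 3.25% lower in these fits. Called genes of mTOR and eIF4E control were 0 to 3 higher and 0 to 1 lower, and synthetases 0 to 2 higher. Without both replicate 1 libraries, an alternative added after seeing the data, members were 2 higher and 5 lower, beside 8.69% and 8.29% of all genes. In that fit mTOR and eIF4E control had 4 higher and 2 lower, and stress response targets 5 higher and 2 lower. Other cytosolic factors had 1 lower and synthetases 5 higher. The cause of these moves was not tested. Depth limits Eif4ebp3, which stayed under 1 CPM in each library.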
